A study of Mus musculus with 12 samples.

Results

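The genes described here make nitric oxide, handle arginine and make polyamines. They are 10 genes chosen by name from the 41325 genes of the deposited tables: Nos2, Gch1, Slc7a2, Ass1, Asl, Arg1, Arg2, Odc1, Srm and Sat1. All 10 had a row in both tables. RNA sequencing measured them in IMG, a mouse microglial cell line that was immortalised; microglia are the macrophages that reside in the brain. The cells were wild type, of the C57Bl6/J strain and of 1 passage. They were kept for 8 h with a scramble control or with 1 of 2 preparations, labelled oAb and fAb, of amyloid beta, a peptide found in the plaques of Alzheimer's disease. The design text joins the word fibrillar to oAb and oligomeric to fAb, while the letters would read the other way, so the 2 preparations are named here by their labels only. Each group held 4 libraries. No label says that they came from separate cultures, so the p-values measure the spread between these libraries, which may be technical.

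In macrophages and microglia, the inducible nitric oxide synthase NOS2 turns arginine into nitric oxide and citrulline. It needs the cofactor tetrahydrobiopterin, whose synthesis begins with GCH1. Arginine enters through cationic amino acid transporters such as the product of Slc7a2, and citrulline can be turned back into arginine by ASS1 and then ASL. The arginases ARG1 and ARG2 split the same arginine into urea and ornithine, and ODC1 makes putrescine from ornithine. SRM makes spermidine from putrescine, and SAT1 acetylates spermidine and spermine for breakdown or export.

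RefSeq's table of promoters on GRCm38.p6, the assembly that mm10 follows, held an entry for 4 of the 10 genes. All 4 are printed, and they were not chosen by fold change. Gch1 and Ass1 rose many-fold after both preparations, whereas the log2 fold changes of Odc1 and Sat1 stayed under 0.5. Each line runs 5′ to 3′ on the gene's own strand, up to the first start site that either RefSeq or the deposited gene model gives. Capitals mark those motif matches listed below that lie within the printed bases.
Gch1, chr14:47189414-47189663, minus strand: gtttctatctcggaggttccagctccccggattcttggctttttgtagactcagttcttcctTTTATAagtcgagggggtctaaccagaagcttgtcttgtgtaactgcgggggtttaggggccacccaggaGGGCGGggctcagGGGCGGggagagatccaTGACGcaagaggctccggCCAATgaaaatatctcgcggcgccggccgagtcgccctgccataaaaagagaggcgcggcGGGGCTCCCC
Ass1, chr2:31470020-31470206, plus strand: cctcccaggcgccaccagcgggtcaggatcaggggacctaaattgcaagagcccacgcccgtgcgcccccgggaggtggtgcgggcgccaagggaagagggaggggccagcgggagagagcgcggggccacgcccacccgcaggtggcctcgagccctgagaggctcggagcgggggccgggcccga
Ass1 E-box, chr2:31470224-31470249, plus strand: cgcccgtcccCACGTGtcccaggttc
Odc1, chr12:17544623-17544793, plus strand: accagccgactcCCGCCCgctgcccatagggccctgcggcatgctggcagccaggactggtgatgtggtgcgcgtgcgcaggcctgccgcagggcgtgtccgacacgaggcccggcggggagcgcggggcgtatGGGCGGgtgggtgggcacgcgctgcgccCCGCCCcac
Sat1, chrX:155216450-155216699, minus strand: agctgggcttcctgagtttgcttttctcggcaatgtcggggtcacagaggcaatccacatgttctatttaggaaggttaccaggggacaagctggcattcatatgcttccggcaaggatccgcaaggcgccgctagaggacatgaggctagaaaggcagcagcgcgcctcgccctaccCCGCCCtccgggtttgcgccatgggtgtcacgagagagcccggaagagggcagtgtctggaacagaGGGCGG

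The 250 bases before each RefSeq start were searched on both strands for 8 motifs. The Gch1 window held the TGACG half-site of the cAMP response element from 88 to 84 bases before the start, and a CCAAT box (CCAAT) from 70 to 66 bases before it. It also held a TATAAA match, read on the other strand, from 188 to 183 bases before the start, 2 GC boxes (GGGCGG) and a match to the NF-kB consensus in the last 10 bases. The Ass1 window held an E-box (CACGTG) from 36 to 31 bases before the start and 1 GC box. The Odc1 window held 4 GC boxes and a TGACG half-site, and the Sat1 window 2 GC boxes. The Ass1 GC box, and the half-site and the last GC box of Odc1, lie past the printed bases. These matches and the Ass1 E-box lie at or past the start that the deposited gene model gives. That start lies 63 bases before the RefSeq start in Ass1 and 79 in Odc1. The GAS element (TTCNNNGAA) and the interferon element ISRE, searched by its consensus, had no match in these 4 windows. None of the matches overlapped. Of the 32851 promoters in the table, 17.8% held TGACG, 33.8% CCAAT, 12.4% TATAAA, 7.25% the NF-kB consensus, 6.02% CACGTG, 32.7% GGGCGG, 7.02% the GAS element and 2.98% the ISRE in the same 250 bases. A match describes the letters only.

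The libraries held 13638721 to 18124419 counts. Of 12 microglia and macrophage markers, all had counts in the controls (3460 to 3780 TPM summed per library). In the treated groups the sum was 2960 to 3240 TPM. The largest parts were Cd68 (1850 TPM in the controls) and Csf1r (879). Tmem119 was at 0.164 TPM in the controls, 0 in oAb and 0.0385 in fAb. P2ry12 was at 7.16, 0.978 and 0.83 TPM in the same order, and C1qa at 3.49, 0.133 and 0.122. Adgre1 went the other way, at 188, 311 and 349 TPM, as did Ptprc and Cx3cr1. The defining neuron markers Rbfox3, Snap25 and Syt1 and the markers Aqp4, Mog, Cldn5 and Pdgfra of other brain cells had no count in any library. Summed neuron markers were at 0.139 to 0.748 TPM without amyloid beta and 1.85 to 2.35 with it, endothelial markers at 0.316 to 0.953 and 3.68 to 5.08, and fibroblast markers at 0 to 0.0748 and 0.875 to 1.75. With amyloid beta, most of these sums were Map2, Flt1 and Dcn. Oligodendrocyte markers summed to 49.1 to 70.3 TPM without amyloid beta and 38.8 to 43.5 with it, nearly all from Mbp and Cnp, and astrocyte markers to at most 0.697 TPM. Their part in the results was not tested. Ribosomal protein genes held 10.6% of the counts of scramble library 3, while they held 6.37% to 6.73% of those of scramble libraries 1, 2 and 4. Counts of a near-identical gene pair, Timm23 and Gm10273, split the libraries. In the Timm23 set (scramble 2, 3 and 4, oAb 1 and 2), Timm23 took 94.6% to 98.3% of the pair's counts. In the Gm10273 set (scramble 1, oAb 3 and 4, all of fAb), Timm23 took 17.5% to 38.5%. No label names such a batch. Fits within 1 set were added after the data were seen, and in the Gm10273 set the lone control, scramble library 1, is assumed to vary like the other libraries. A fit with the set as a term rests, for fAb against scramble, on that same lone control, so it is no separate check.

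Levels were set side by side in TPM, a transcript measure scaled by gene length and depth. In the controls the polyamine genes led, with Srm at 507 TPM, Odc1 at 319 ± 12.1 and Sat1 at 146 (means of 4 libraries). Asl (19.4 TPM) and Ass1 (17.5) followed and overlapped each other. Slc7a2 was at 6.34 TPM, Gch1 at 2.05, Arg2 at 0.741, Nos2 at 0.0111 and Arg1 at 0. After oAb the order from the top was Srm (590 TPM), Odc1 (380), Slc7a2 (203), Ass1 (173), Nos2 (169), Sat1 (143), Gch1 (33.6), Asl (19.5), Arg2 (1.53) and Arg1 (0.0187). Slc7a2, Ass1 and Nos2 overlapped their neighbours in that order. After fAb it was the same except that Sat1 (164 TPM) stood between Ass1 (167) and Nos2 (153), and these 3 overlapped their neighbours. Nos2, Slc7a2 and Ass1 were thus all below Asl in mean TPM in the controls. After oAb all their libraries lay above those of Sat1 (133 to 154 TPM). After fAb those of Slc7a2 did (204 to 227 TPM against 144 to 186), while Ass1 and Nos2 overlapped Sat1. Srm and Odc1 kept the top of the order.

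**Figure D1:**
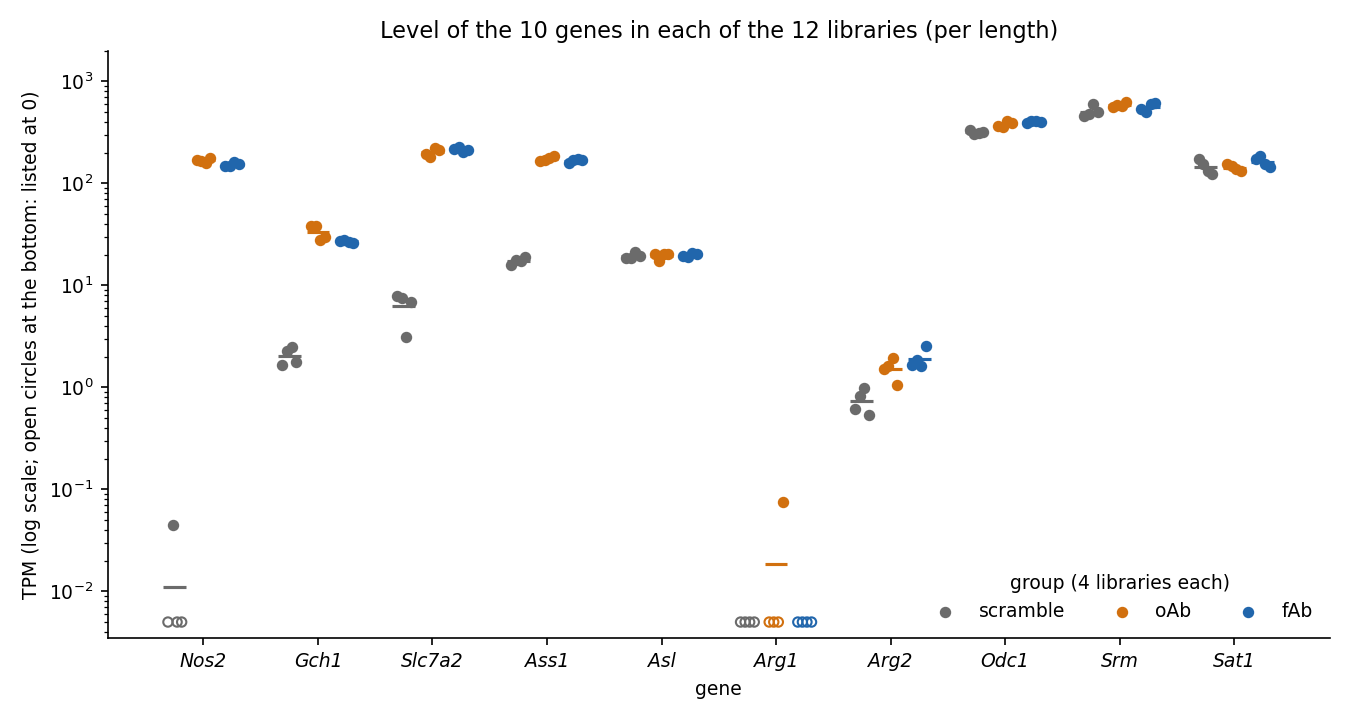
TPM of the 10 genes (log axis) in each library, with 4 points per group and a short line at the group mean; open circles at the bottom are libraries where the gene is listed at 0. Nos2, Gch1, Slc7a2 and Ass1 lie far above the controls in both treated groups, while Asl, Srm, Odc1 and Sat1 stay near them and Arg1 has 1 count in 1 library.

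The comparisons with scramble ask what each preparation changed after 8 h. In oAb, 5 of the 10 genes rose (Nos2, Gch1, Slc7a2, Ass1 and Odc1) and 0 fell, of 8 that passed the filter on low counts. Over all genes tested, edgeR's quasi-likelihood test called 52.2% (25.2% higher, 27% lower) with an adjusted p under 0.05. In fAb, 7 of the 10 rose (the same 5 with Arg2 and Sat1) and 0 fell, of 9 tested, against 56.3% over all genes (27.6% higher, 28.8% lower). Nos2 and Arg2 entered the tests only through the treated libraries, so these counts are descriptions. In counts scaled to the normalised library size, all 4 treated libraries lay above all 4 controls for 5 of the 10 genes in oAb and for 6 in fAb. Over all genes tested the groups did not overlap in 51.1% in oAb (26.2% higher, 25% lower) and 55.4% in fAb (27.4% higher, 28% lower). Both comparisons use the same control libraries. The median log2 fold change of all tested genes was -0.07 in oAb and -0.04 in fAb. Without scramble library 3, 8 of the genes passed in oAb and 9 in fAb, where 64.4% and 68% of all genes tested passed. Within the Timm23 set, which left 2 oAb libraries against 3 controls, 4 passed in oAb, against 33.8% of all genes tested.

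Nos2 (chromosome 11, 78920787 to 78960254, plus strand) encodes the inducible nitric oxide synthase. It had 0, 1, 0 and 0 counts in scramble libraries 1 to 4. It had 4154, 3754, 4121 and 4740 counts in the oAb libraries and 3916, 3977, 3976 and 4118 in the fAb libraries. A gene with 1 control count in 65581181 normalised counts thus became a transcript at 169 ± 8.31 TPM in oAb and 153 ± 5.56 TPM in fAb. The ratio to the controls was 18350 in oAb (95% counting interval 3294 to 725000) and 15690 in fAb (2815 to 619700), and its size rests on that 1 control count. In CPM, counts scaled to the normalised library size, the oAb libraries were at 273, 273, 270 and 301 and the fAb libraries at 227, 222, 261 and 251 (SD 14.6 and 18.5). In bulk RNA, more cells that express a gene and more RNA per cell cannot be told apart.

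Gch1 (chromosome 14, 47153895 to 47189413, minus strand) encodes GTP cyclohydrolase, the first and rate-limiting enzyme of tetrahydrobiopterin synthesis. Its CPM was 3.09, 4.4, 6.38 and 3.60 in the controls, 86.1, 90.7, 67.1 and 71.3 in oAb, and 58.8, 59.3, 61.9 and 60.3 in fAb. Every treated library was well above every control, and every oAb library was above every fAb library. Gch1 rose by 4.19 ± 0.23 (SE) on the log2 scale in oAb (adjusted p = 4.84e-07 in edgeR's quasi-likelihood test with Benjamini-Hochberg adjustment, used for every adjusted p here) and by 3.83 ± 0.21 in fAb (adjusted p = 5.1e-07).

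Slc7a2 (chromosome 8, 40862396 to 40922308, plus strand) encodes the cationic amino acid transporter CAT2. Its CPM was 21.5, 21.0, 11.7 and 20.4 in the controls, 645, 629, 777 and 736 in oAb, and 687, 701, 687 and 709 in fAb. Scramble library 3 was the lowest control, and no treated library came near the controls. The rise was 5.22 ± 0.22 on the log2 scale in oAb (adjusted p = 7.63e-08) and 5.26 ± 0.20 in fAb (adjusted p = 5.34e-08). Slc7a1, which encodes the broadly expressed transporter CAT1, rose too, by 1.33 ± 0.17 and 1.28 ± 0.17. Of the TPM of these 2 transporter genes, Slc7a2 held 13.7% ± 1.5 (SD, n = 4) in the controls, 70.3% ± 1.08 in oAb and 71.5% ± 1.5 in fAb, so the more abundant gene of the pair changed from Slc7a1 to Slc7a2 in every treated library.

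Ass1 (chromosome 2, 31470207 to 31520672, plus strand) encodes argininosuccinate synthase, which starts the rebuilding of arginine from citrulline. Its CPM was 11.5, 13.1, 17.2 and 14.8 in the controls, 145, 153, 163 and 169 in oAb, and 131, 138, 154 and 152 in fAb. The groups did not overlap, and Ass1 rose by 3.48 ± 0.14 on the log2 scale in oAb (adjusted p = 5.75e-08) and by 3.38 ± 0.14 in fAb (adjusted p = 1.03e-07). Of its 50-base words, 38.6% also lie in Gm5424, a gene not analysed here, so its counts are uncertain.

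Asl (chromosome 5, 130011258 to 130029247, minus strand) encodes argininosuccinate lyase, the next enzyme of that route. Its CPM was 27.1, 27.4, 41.9 and 30.2 in the controls, 35.4, 31.9, 37.5 and 37.1 in oAb, and 32.6, 30.8, 36.6 and 36.3 in fAb. Scramble library 3 was the highest of all 12 libraries, and the groups overlapped. The log2 fold change was 0.17 ± 0.15 in oAb (adjusted p = 0.363) and 0.14 ± 0.15 in fAb (adjusted p = 0.443). Without scramble library 3 it was 0.33 (adjusted p = 0.00459) and 0.31 (adjusted p = 0.00693), and both then passed. Within the Gm10273 set it was 0.50 in oAb (adjusted p = 0.00114) and 0.39 in fAb (adjusted p = 0.0199), and within the Timm23 set 0.03 in oAb (adjusted p = 0.923). Ass1 held 47.4% ± 2.1 of the TPM of Ass1 and Asl in the controls, 89.9% ± 0.611 in oAb and 89.4% ± 0.427 in fAb.

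**Figure D2:**
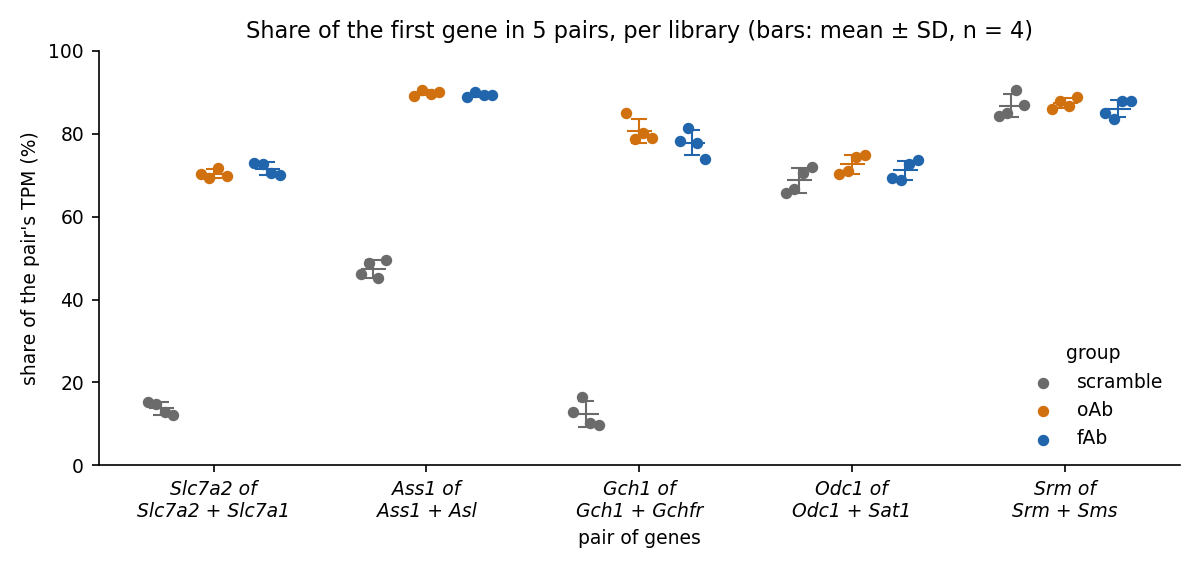
Share of the TPM of 5 gene pairs held by the first gene, in percent, with 1 point per library, 4 per group, and mean ± SD. Slc7a2 against Slc7a1, Ass1 against Asl and Gch1 against Gchfr, the gene of a regulator of GCH1, stand apart from the controls in both treated groups (Gch1 at 12.4% in the controls, 80.6% in oAb and 77.8% in fAb), whereas Odc1 against Sat1 and Srm against the spermine synthase gene Sms overlap between groups.

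The arginase genes stayed low. Arg1 (chromosome 10, 24915221 to 24927484, minus strand), which encodes the cytosolic arginase that marks alternatively activated macrophages, had 0 counts in the controls, 1 count in oAb library 4 and 0 in the other treated libraries. All 3 groups lay at or under the floor of 3 counts per group, about 0.0449 to 0.0501 CPM, so no change was detectable at this depth and no fold is given. Arg2 (chromosome 12, 79130777 to 79156301, plus strand), which encodes the mitochondrial arginase, had 5, 6, 8 and 4 counts in the controls, 12, 12, 16 and 9 in oAb, and 14, 16, 13 and 22 in fAb. Every fAb library was above every control in CPM, while the lowest oAb library (0.572 CPM) fell just under the highest control (0.580). The log2 fold change of Arg2 was 1.48 ± 0.33 in fAb (adjusted p = 0.00401), where it passed the filter on low counts only through the fAb libraries, so this p supports nothing by itself. In oAb it did not pass the filter. In the fits without a filter, the log2 fold change was 1.47 in fAb (adjusted p = 0.0065) and 1.21 in oAb (adjusted p = 0.0302). At 1.53 and 1.92 TPM it was 0.908% ± 0.25 and 1.24% ± 0.275 of the TPM of Arg2 and Nos2 in oAb and fAb. Exons of Gm48780 and Vti1b on the other strand overlap 28.1% of its exon length, Vti1b had 773 to 1087 counts per library, and no source used here says whether counting used strand, so the counts of Arg2 are uncertain.

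Odc1 (chromosome 12, 17544794 to 17551505, plus strand) encodes ornithine decarboxylase, the rate-limiting enzyme of polyamine synthesis. Its CPM was 341, 324, 437 and 353 in the controls, 448, 462, 527 and 513 in oAb, and 458, 475, 511 and 508 in fAb. The groups did not overlap, although scramble library 3 came close to the lowest treated libraries. Odc1 rose by 0.43 ± 0.12 on the log2 scale in oAb (adjusted p = 0.0128) and by 0.46 ± 0.11 in fAb (adjusted p = 0.00643). With upper quartile scaling, which moved the median of all genes to -0.24 and -0.22, it was at 0.25 (adjusted p = 0.0989) and 0.27 (adjusted p = 0.0604), and within the Timm23 set at 0.30 in oAb (adjusted p = 0.227). It shares 24.3% of its 50-base words with other genes, Gm7993 foremost, so its counts are uncertain.

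Srm (chromosome 4, 148591503 to 148594993, plus strand) encodes spermidine synthase. Its CPM was 219, 235, 391 and 256 in the controls, 328, 358, 354 and 380 in oAb, and 299, 272, 353 and 360 in fAb. Scramble library 3 was the highest of all 12 libraries and the other controls were the lowest. The log2 fold change was 0.37 ± 0.18 in oAb (adjusted p = 0.106) and 0.26 ± 0.19 in fAb (adjusted p = 0.28), and neither passed. Without scramble library 3 it was 0.59 (adjusted p = 5.88e-05) and 0.48 (adjusted p = 0.00237), and both passed. Within the Gm10273 set, with scramble library 1 as the lone control, it was 0.78 and 0.61, and within the Timm23 set 0.23 in oAb (adjusted p = 0.502). The share of ribosomal protein counts was highest in scramble library 3, and its part in the result was not tested.

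Sat1 (chromosome X, 155213132 to 155216449, minus strand) encodes the acetyltransferase that opens polyamine breakdown. Its CPM was 144, 132, 149 and 112 in the controls, 155, 154, 147 and 141 in oAb, and 165, 174, 157 and 148 in fAb. All 3 groups overlapped. The log2 fold change was 0.16 ± 0.11 in oAb (adjusted p = 0.240) and 0.30 ± 0.11 in fAb, where it passed narrowly (adjusted p = 0.0422). That call was lost in 11 of 18 other settings (adjusted p from 0.0058 to 0.437 over all of them), among them leaving out scramble library 1 (adjusted p = 0.051), 2 (0.109) or 4 (0.0935) or fAb library 1 (0.0908), 2 (0.133) or 3 (0.0669), and the fit with the library set as a term (0.21, adjusted p = 0.407).

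**Figure D3:**
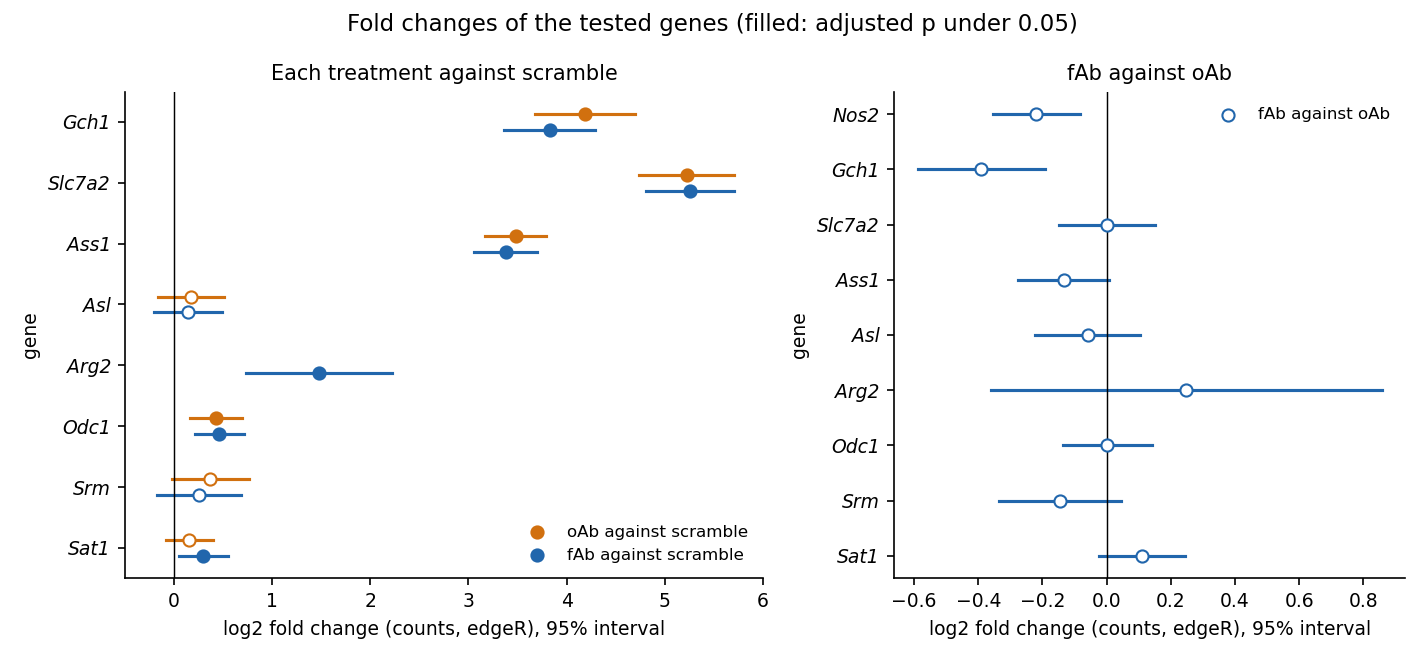
Log2 fold changes from counts with 95% intervals, filled where the adjusted p is under 0.05; left, each treatment against scramble for 8 genes (Nos2 and Arg1 are left out because of their control counts, and Arg2 was tested only for fAb), right, fAb against oAb for 9 genes. Slc7a2, Gch1 and Ass1 lie between 3.38 and 5.26 on the left, Odc1, Srm, Sat1 and Asl between 0.14 and 0.46, and every symbol on the right is open.

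The direct comparison of fAb with oAb asks whether the preparations differ. None of the 10 genes passed, and of 10878 genes tested 0% were called by edgeR, 1391 genes having an unadjusted p under 0.05; DESeq2 called 16 genes, none of the 10, and limma voom 0. In CPM, Nos2 and Gch1 were lower in every fAb library than in every oAb library, a pattern found in 3.25% of all tested genes. In CPM, 0 of the 10 showed the opposite pattern (3.05%, or 6.31% for both directions). In TPM the groups overlapped for Nos2, with fAb library 3 at 160.7 and oAb library 3 at 160.4. Gch1 stayed apart in TPM by a small gap (27.98 in fAb library 2, 28.08 in oAb library 3). The log2 difference was -0.22 for Nos2 (95% interval -0.35 to -0.08, adjusted p = 0.375) and -0.39 for Gch1 (-0.59 to -0.19, adjusted p = 0.375), with intervals that are not adjusted for the number of genes. For Gch1 the 2 oAb libraries of the Timm23 set held 86.1 to 90.7 CPM and the 2 of the Gm10273 set 67.1 to 71.3, against 58.8 to 61.9 in fAb, whose libraries were all of the Gm10273 set. Within the Gm10273 set the difference of Gch1 was -0.19 and that of Nos2 -0.24 (adjusted p = 0.442 for both). Slc7a2 ran the other way between the sets, at 629 to 645 CPM in the oAb libraries of the Timm23 set and 736 to 777 in those of the Gm10273 set. For Slc7a2 the difference between preparations was 0.00 (-0.15 to 0.15) and for Odc1 0.00 (-0.14 to 0.14), for Ass1 -0.13 (-0.28 to 0.01), for Srm -0.14 (-0.33 to 0.04), for Sat1 0.11 (-0.02 to 0.24), for Asl -0.06 (-0.22 to 0.11) and for Arg2 0.25 (-0.36 to 0.86).

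**Figure D4:**
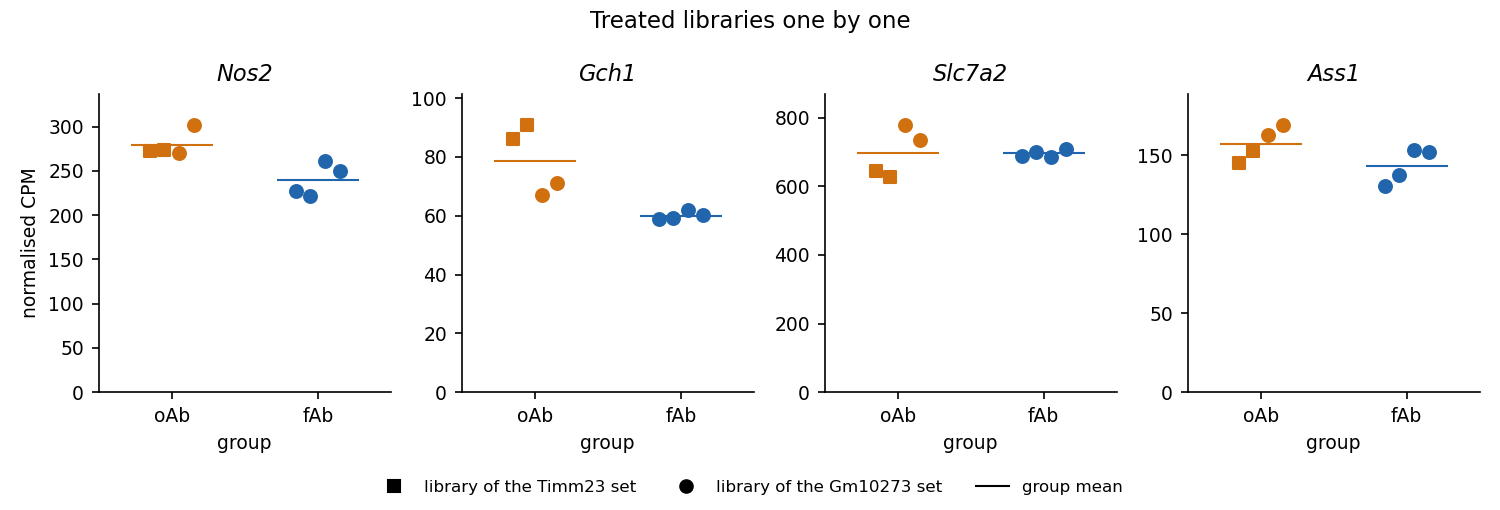
Normalised CPM of Nos2, Gch1, Slc7a2 and Ass1 in the 8 treated libraries, with squares for the Timm23 set, circles for the Gm10273 set and a line at each group mean. The squares of Gch1 (86.1 and 90.7) stand above all circles and those of Slc7a2 (645 and 629) below all circles.

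Other genes of the same pathways came from 72 genes in 9 groups, of which 71 had a row and 45 were tested against scramble. In oAb 11 rose and 15 fell (24.4% and 33.3% of those tested, against 25.2% and 27% of all genes), with a median log2 fold change of -0.12. In fAb 12 rose and 19 fell (26.7% and 42.2%, against 27.6% and 28.8%), with a median of -0.23. The medians over all tested genes were -0.07 and -0.04. Spsb1 entered these tests only through the treated libraries and Nos1 only through the controls, so the counts are descriptions. In fAb against oAb, 0 of 44 tested passed, and the median was -0.01.

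Of 6 tested genes for the other nitric oxide synthases and for tetrahydrobiopterin, 0 rose and 3 fell in oAb (median -0.65), where 27% of all genes fell, and 0 rose and 6 fell in fAb (median -0.90), where 28.8% of all genes fell. Nos1, encoding the neuronal synthase, fell from 1.93 to 0.374 CPM in oAb (-2.36 ± 0.35, adjusted p = 0.000381) and to 0.319 in fAb (-2.55 ± 0.27, adjusted p = 4.37e-05). It passed the filter only through the controls, so these p support nothing by themselves and the counts of genes that fell are descriptions. In the fits without a filter, Nos1 was at -2.34 (adjusted p = 0.000376) and -2.55 (adjusted p = 4.41e-05). Pts, whose enzyme acts just after GCH1, fell by 0.84 ± 0.12 and 1.06 ± 0.12. Spr, encoding the enzyme of the last step, fell by 0.91 ± 0.28 in fAb (adjusted p = 0.0199). That call was lost within the Gm10273 set (-0.0045, adjusted p = 0.983), with the library set as a term (-0.01, adjusted p = 0.979) and without fAb library 1 (-0.89, adjusted p = 0.0527) or 2 (-0.86, adjusted p = 0.0528). Spr was at 29.5 to 30.7 CPM in the oAb libraries of the Timm23 set and at 19.8 to 21.1 in those of the Gm10273 set.

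Genes that act on the synthases changed in both directions. Of 5 tested, 1 rose and 2 fell after each preparation (20% and 40%, medians -0.10 and -0.12). Over all genes tested, 25.2% rose and 27% fell in oAb, and 27.6% and 28.8% in fAb. Spsb1, encoding an adaptor that marks NOS2 for degradation, rose by 2.40 ± 0.22 in oAb (adjusted p = 1.54e-05) and 2.31 ± 0.24 in fAb, from 0.617 to 3.26 and 2.99 CPM. It passed the filter only through the treated libraries, so that p supports nothing by itself and the count of genes that rose is a description. In the fits without a filter, Spsb1 was at 2.42 (adjusted p = 9.65e-06) and 2.30 (adjusted p = 2.22e-05). Spsb2, encoding a second adaptor of that kind, fell by 1.01 ± 0.25 and 1.23 ± 0.24. In fAb the call of Spsb2 was lost with the library set as a term (-0.72, adjusted p = 0.109). Nostrin, encoding a trafficking protein of the endothelial synthase, fell by 0.95 ± 0.11 and 0.66 ± 0.10. Of 8 genes of nitric oxide sensing and removal, 2 were tested (Adh5 and Akr1a1) and 0 passed in either comparison.

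Arginine transport genes rose in 3 and fell in 1 of 4 tested after each preparation (medians 0.86 and 0.92). The shares of all genes tested were 25.2% higher and 27% lower in oAb, and 27.6% and 28.8% in fAb. Slc3a2, encoding the heavy chain that several amino acid transporters share, rose by 1.42 ± 0.13 in oAb and 1.33 ± 0.14 in fAb, beside Slc7a1 described above. Slc38a9, encoding a lysosomal arginine sensor, fell by 0.61 ± 0.15 in oAb and 0.41 ± 0.14 in fAb, and Slc7a6 rose by 0.40 ± 0.15 and 0.55 ± 0.14. The call of Slc7a6 in fAb was lost with the library set as a term (0.28, adjusted p = 0.314) and with upper quartile scaling (0.36, adjusted p = 0.0522). Of 14 urea cycle and arginine derivative genes only 4 were tested, and Gamt, encoding the second enzyme of creatine synthesis, fell by 1.30 ± 0.26 and 1.54 ± 0.28. Padi2, encoding an enzyme that converts protein arginine to citrulline, fell by 0.43 ± 0.12 and 0.54 ± 0.12. The call of Padi2 in oAb was lost within the Gm10273 set (-0.21, adjusted p = 0.171) and without oAb library 2 (-0.38, adjusted p = 0.0519). With the library set as a term Padi2 (-0.43, adjusted p = 0.118) and Gamt (-1.02, adjusted p = 0.0715) lost their calls in fAb. Among 6 tested genes of ornithine and proline metabolism, Aldh18a1, which leads to proline and ornithine synthesis, rose by 0.54 ± 0.08 and 0.51 ± 0.08. The proline breakdown genes Prodh (-0.87 ± 0.19 and -0.84 ± 0.16) and Aldh4a1 (-0.60 ± 0.13 and -0.79 ± 0.15) fell, and both fits with the library set ended the call of Aldh4a1 in fAb (-0.44, adjusted p = 0.109, as a term). Of Aldh4a1, 32.5% of the exon length overlaps Gm21969 on the same strand.

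Among 6 tested genes that support polyamine synthesis, 3 rose and 1 fell in oAb (median 0.40). In fAb, 4 rose and 1 fell (median 0.48). For these and the breakdown genes below, the shares of all genes tested were 25.2% higher and 27% lower in oAb. In fAb the shares were 27.6% and 28.8%. Mat2a, which makes the methyl donor from which the aminopropyl groups come, rose by 0.94 ± 0.16 and 1.11 ± 0.16. Mtap, which salvages the by-product of polyamine synthesis, rose by 0.68 ± 0.09 and 0.72 ± 0.07. The spermine synthase gene Sms rose by 0.35 ± 0.08 and 0.38 ± 0.07, and both calls were lost with upper quartile scaling (adjusted p = 0.096 and 0.055). Sms also shares 17.5% of its 50-base words with other genes, Sms-ps foremost, so its counts are uncertain. Within the Timm23 set, with its 5 libraries, 6 named genes missed the threshold in oAb at log2 fold changes near those of all libraries or larger. They were Sms at 0.36 (adjusted p = 0.0666), Spsb2 at -0.90 (0.0516), Padi2 at -0.55 (0.0599), Prodh at -0.85 (0.0514), Paox at -0.89 (0.0509) and Dhps at 0.61 (0.0552). In polyamine breakdown and transport, 1 of 5 tested rose and 3 fell after each preparation (medians -0.434 and -0.435). The 1 that rose was Smox, encoding spermine oxidase, at 38.7 CPM in the controls, 127 in oAb (1.71 ± 0.16, adjusted p = 1.8e-05) and 98.1 in fAb (1.38 ± 0.17, adjusted p = 0.000128). Aldh9a1 fell by 0.43 ± 0.08 in both. Paox, encoding a polyamine oxidase that acts on acetylated polyamines, fell by 0.80 ± 0.18 in oAb and 0.73 ± 0.18 in fAb, and it shares 25.9% of its 50-base words with other genes, which makes its counts uncertain. Atp13a2, encoding a lysosomal polyamine exporter, fell by 1.05 ± 0.30 in oAb and 1.51 ± 0.27 in fAb. The call of Atp13a2 in fAb was lost with the library set as a term (-0.60, adjusted p = 0.103). Within the Gm10273 set its difference was -0.59. Aldh9a1 in fAb lost its call once the set entered as a term, at -0.34 (adjusted p = 0.0637).

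Antizymes bind ornithine decarboxylase and send it for degradation. Of 7 tested antizyme and hypusine genes, 2 rose after each preparation, 1 fell in oAb and 2 fell in fAb (medians -0.11 and -0.06). Among all genes tested, 25.2% rose and 27% fell in oAb, and 27.6% and 28.8% in fAb. Azin1, encoding an inhibitor that draws antizymes away from ornithine decarboxylase, rose from 147 to 287 CPM in oAb (0.97 ± 0.17, adjusted p = 0.00128) and to 296 in fAb (1.05 ± 0.18, adjusted p = 0.000874). Oaz2, an antizyme gene, fell by 0.64 ± 0.13 and 0.62 ± 0.13, and Dhps, which uses spermidine to make hypusine, rose by 0.63 ± 0.13 and 0.57 ± 0.13. With the library set as a term the calls of Azin1 (0.81, adjusted p = 0.0561) and Oaz2 (-0.41, adjusted p = 0.133) in fAb were lost.

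**Figure D5:**
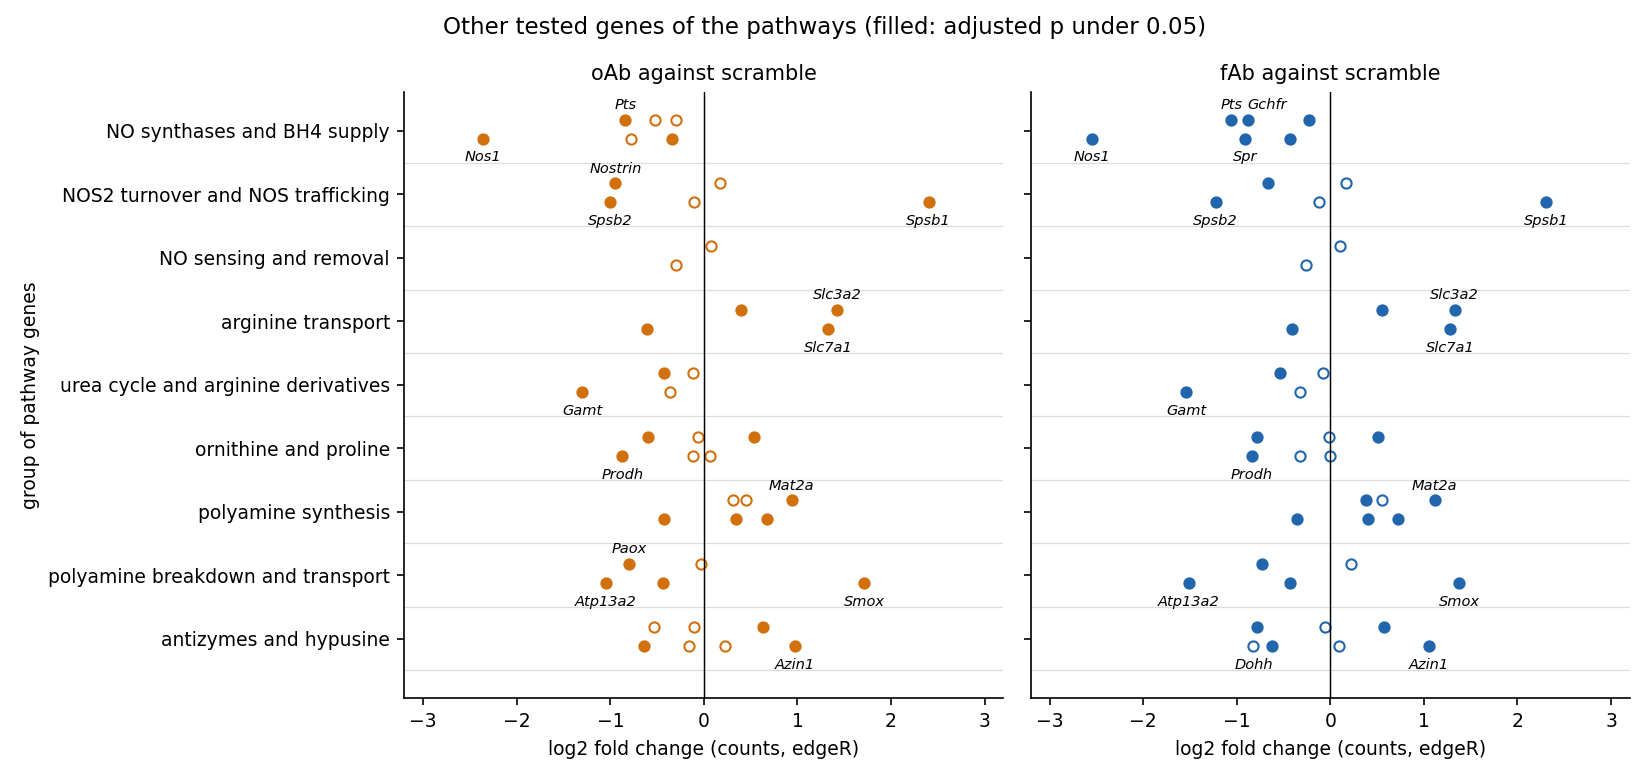
Log2 fold changes against scramble of the 45 other tested pathway genes, 1 row per group of genes, oAb on the left and fAb on the right, filled where the adjusted p is under 0.05; genes beyond 0.8 in size are named. Spsb1, Smox, Slc3a2 and Slc7a1 lie to the right in both panels, and Nos1, Gamt and Spsb2 to the left.

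The genes whose pattern was most like that of a member were found by Pearson's r of log2 CPM over the 12 libraries, among 9780 genes. The step between controls and treated libraries dominates this measure, and all genes share the same libraries and depths. Nearest to Nos2 were Il6 (r = 0.9995), Cxcl10 (r = 0.9995) and Ifi204 (r = 0.9995), which encode a cytokine, a chemokine and an interferon-induced protein. Nearest to Slc7a2 were the interferon-induced genes Ifit2 (r = 0.9997), Parp12 (r = 0.9995) and Ifih1 (r = 0.9995). Near to Ass1 were Hsd17b12 (r = 0.9994) and Icam1 (r = 0.9994), and nearest to Gch1 Sdc1 (r = 0.9971), H3f3b (r = 0.9969) and Tor3a (r = 0.9969). For the genes that moved little the nearest values were lower: Blmh for Odc1 (r = 0.9912), Aldoa_1 for Srm (r = 0.9896), Snx17 for Asl (r = 0.9599) and Dnajc7 for Sat1 (r = 0.949). Arg2, which rests on few counts, was nearest to Ociad1 (r = 0.9483).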

How the data were processed

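Stranded mRNA libraries were sequenced, per the labels' protocols. Per the file headers the reads had been trimmed. The submitters' processing notes name the build mm10, and the aligner and counter are not given in the sources used. The authors deposited whole-number counts, RPKM and TPM per gene and library in 2 tables, in which the 4 controls have the same counts. The 16 columns named CPM and the authors' fold changes were not used.

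Counts were tested with edgeR 4.0.16 in R 4.3.3 (filterByExpr with a minimum count of 10, TMM, robust quasi-likelihood F test, two-sided, Benjamini-Hochberg adjustment over all genes tested, threshold 0.05), on the 8 libraries of each comparison. Printed CPM use TMM over all 12 libraries. Intervals are 95%, on moderated degrees of freedom, and counting intervals and floors cover counting error only. DESeq2 1.42.0, limma 3.58.1 (voom) and other settings were alternatives. Members, lists and settings were chosen with earlier results of these data known. Named pathway genes are the up to 3 of each group with the smallest adjusted p past the threshold, per comparison; a few genes that the rules name are not reported here. Of 72 genes listed, 71 matched a name. Exon overlaps and shared 50-base words came from GENCODE M21.

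The fit was tested on simulated data. Libraries of 1 group differed beyond counting noise in every pair (chi-square statistic over its degrees of freedom from 2.97 to 143).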

Additional observations from a re-analysis of the deposited data

Results flagged for a closer look

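In all, 3 values stood apart from the other libraries of their group, by a gap to the nearest library that exceeded Dixon's critical share of the group's range, among 28 sets of 4 libraries. Chance flags about 1 in 20 such sets where values are continuous and normal. A set with a single count in 1 library and 0 in the rest is always flagged. Nos2 was at 0.0442 TPM in scramble library 2 and listed at 0 in the other controls, which is a single count. Arg1 was at 0.075 TPM in oAb library 4 and listed at 0 in every other library, also a single count. Asl was at 17.5 TPM in oAb library 2, below the other oAb libraries, at 438 counts.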

How the results depend on the processing

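Against scramble, 5761 genes passed the threshold in oAb and 6235 in fAb, and 0 passed between the preparations. They numbered 3792 within the Timm23 set for oAb, 3844 with the library set as a term for fAb and 16 with DESeq2 for fAb against oAb; the cause was not tested. Leaving out 1 library gave 4962 to 7174, 5517 to 7598 and 0 to 0, the highest counts being without scramble library 3. With upper quartile scaling 2127 genes were higher and 4015 lower in oAb (main 2777 and 2984), and 2273 and 4361 in fAb (main 3051 and 3184). The fit with the replicate number as a block called 5081, 6292 and 0 genes and changed no call of a member; same-numbered libraries correlated at -0.25 to 0.0755 in oAb against scramble, 0.0884 to 0.198 in fAb against scramble and -0.231 to 0.242 in fAb against oAb, not over 0.1 in every pair of any comparison, and no label pairs them.

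Leaving out 1 library, 5 to 8 members passed in oAb, 8 without scramble library 3, where 64.4% of all genes tested passed. Of 474 refits over 26 member results, 437 kept direction and side of the threshold, 14 lost a call and 8 gained one. Signs turned only in values that were not called: with upper quartile scaling Asl went to -0.0008259 in oAb and -0.043 in fAb, and Sat1 to -0.016 in oAb. In fAb against oAb, Slc7a2 went to -0.001115 with all 12 libraries, -0.11 with the library set as a term and -0.10 within the Gm10273 set, and ranged from -0.033 to 0.056 leaving out 1 library. Odc1 went to -0.086 with the set as a term and -0.077 within the Gm10273 set, and ranged from -0.026 to 0.041. Shares of gene pairs were the same in RPKM. Depth limits Arg1, Arg2 and Nos2 in the controls.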

Other observations

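In all, 12 of the other pathway genes had no count in any of the 12 libraries. They include Gucy1a1, Gucy1b1 and Gucy1a2, which encode subunits of the guanylate cyclase that senses nitric oxide, and Prkg1, a kinase that acts after it. Cps1 and Nags, which start the urea cycle in the liver, also had none. The limit that a count of 0 allows is 3 counts per group, or 0.0457 CPM in the controls, 0.0501 in oAb and 0.0449 in fAb.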
